A study of Oryza sativa with 23 samples.

Results

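In the roots of droughted rice, 127 loci gave a clear array signal in the IR64 lines and a far lower signal in Vandana and its near isogenic line. The lines of the first kind were IR64-WT, the unmodified cultivar IR64, and IR64-Tr-E2, a homozygous line from 1 single-copy transformation event that overexpresses the Way Rarem allele of the NAC-type transcription factor gene OsNAM12.1 in IR64. The promoter of that transgene is not given in the sources used here. The lines of the second kind were Vandana, an upland cultivar, and NIL-481-B, a Vandana line that carries the Way Rarem allele of the drought yield locus qDTY12.1. The members were chosen by the deposited log2 values of the drought arrays alone. A probe was taken when its lowest value on the 6 drought arrays of the IR64 lines lay more than 2 log2 units above its highest value on the 6 drought arrays of NIL-481-B and Vandana, and when it was well above background on all 6 IR64-line drought arrays. The gap alone was met by 155 probes, and both conditions by 127 of 52901 probes, each standing for a different locus. The drought difference between the IR64 lines and the Vandana lines is therefore given as a description, with no test.

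Plants of all 4 genotypes were grown for 25 days in soil cylinders. Drought was imposed by letting the soil dry from 75% of field capacity. Watered controls of the IR64 lines were kept at 1.2 times field capacity, whereas those of Vandana and NIL-481-B were kept at field capacity itself, so genotype and watering level cannot be told apart between backgrounds. Every genotype had 3 arrays per treatment, apart from well-watered IR64-Tr-E2 with 2 (replicates 1 and 3). Whether each array held 1 plant or a pool is not given in the sources used here, so p-values measure the spread between these arrays, which may be partly technical.

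Rice cultivars differ from each other not only in single bases but in the genes they carry and in those they express, and such loci often belong to duplicated families that lie side by side on a chromosome. IR64 is a widely grown lowland indica cultivar, whereas Vandana was bred for dry upland fields. An array probe is an oligonucleotide made from 1 reference transcript, so that a dim spot can stand for little transcript or for a transcript that differs from the probe, and these cannot be told apart here. Roots were measured in bulk, in which fewer cells of a type and less RNA per cell cannot be told apart either. Levels below are quantile-normalized log2 signals, and a spot is called well above background where the scanner software marked it so.

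The array labelled Vandana well-watered replicate 2 stood apart and is named before any result. On it 124 of the 127 members were well above background, and the median member had a log2 signal of 6.53. All 127 members lay nearer to the well-watered IR64 lines than to the other well-watered arrays of NIL-481-B and Vandana there, against 0 to 7 members on those other arrays. The same array lay nearer to the IR64 lines for 155 of the 158 loci of the mirror set, which met the same gap in the opposite direction, against at most 36 on the others. It was kept under its label, and each result that rests on it is given with and without it. Of 4 root genes, OsLsi1 (a silicon transporter) and OsNAR2.1 (a nitrate uptake partner) were well above background on all 23 arrays, OsLsi2 (a silicon efflux transporter) on 22 and OsIRT1 (an iron transporter) on 17. The 5 leaf genes that were examined were not absent either. The log2 of their summed signals ranged from 6.70 to 15.06 on droughted and from 8.80 to 14.04 on well-watered arrays of the IR64 lines. On those of NIL-481-B and Vandana it ranged from 7.73 to 15.68 and from 8.13 to 14.05. These ranges overlap. The 3 RBCS genes among them, which encode the small subunit of Rubisco, were lower in the droughted IR64 lines. Their median log2 signals there were 4.69, 5.11 and 5.28, against 7.80 to 8.08 in droughted NIL-481-B and Vandana. The other leaf genes, CAB-1 and CAB-2, were not lower, with medians of 7.07 and 7.70 against 7.01 and 7.51. The drought contrast is the one in which the members were chosen to be higher. The part of leaf RNA in the members' values was not tested.

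**Figure D1:**
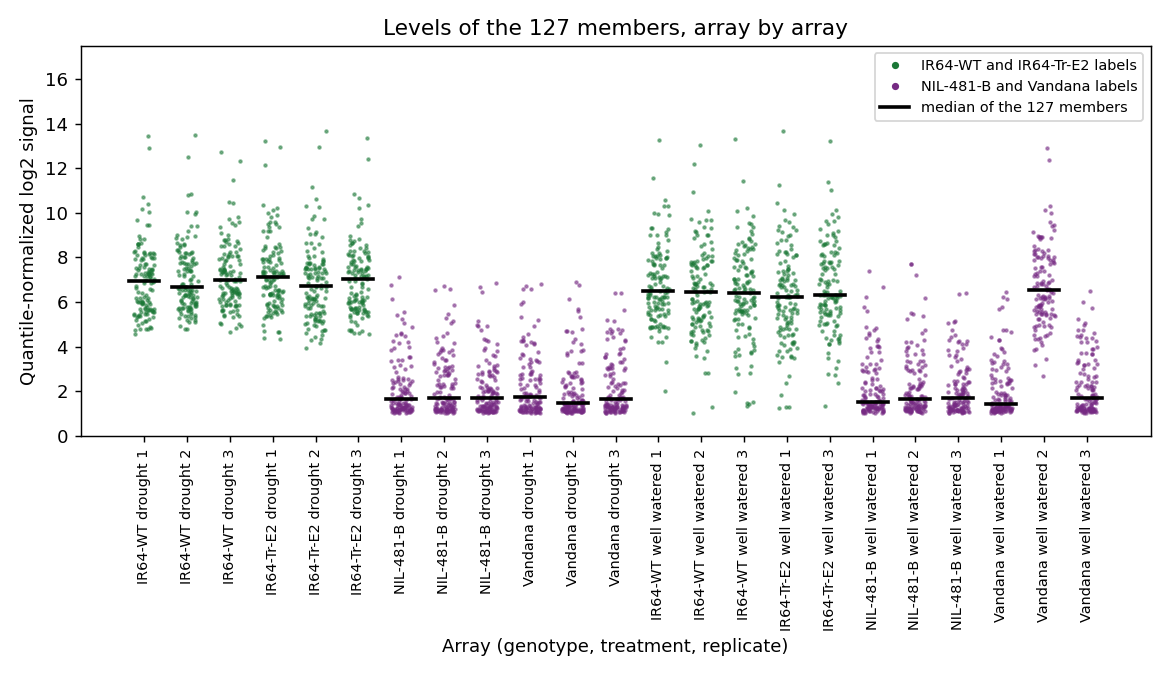
Quantile-normalized log2 signal (y axis) of the 127 members on each of the 23 arrays (x axis), with a bar at the median. The medians lie between 6.20 and 7.12 on the 11 IR64-line arrays and between 1.44 and 1.72 on 11 of the 12 arrays of NIL-481-B and Vandana, and at 6.53 on the array labelled Vandana well-watered replicate 2.

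The members' spots were of ordinary brightness on the IR64-line drought arrays, as a set of array signals, which do not compare transcript amounts between probes. Their mean log2 signal on the IR64-line drought arrays ran from 4.72 to 13.27 with a median of 6.98, and the 20235 probes that were well above background on those 6 arrays had a median of 7.02. Of the members, 62 lay above that median. The gap that chose them had a median of 3.28 log2 units, exceeded 4 in 42 members and exceeded 6 in 8.

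The name "only in IR64" fits most of the members and not all of them. Under drought, 88 of the 127 were well above background on none of the 6 arrays of NIL-481-B and Vandana, 25 on some and 14 on all 6. On the 5 well-watered arrays of those genotypes, leaving out Vandana well-watered replicate 2, 94 were well above background on none, 31 on some and 2 on all. The 2 were LOC_Os05g42040 and LOC_Os07g28644. Altogether 83 members were dim on all 11 of these arrays, and 49 were also well above background on all 11 arrays of the IR64 lines. For the 14 members with signal on all 6 Vandana-background drought arrays the gap ran from 2.06 to 4.19, so that these loci were lower in NIL-481-B and Vandana rather than silent.

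The 2 widest gaps belonged to loci on chromosomes 5 and 6. LOC_Os05g10414 had log2 signals of 13.44, 13.51 and 12.34 in droughted IR64-WT and of 13.25, 13.70 and 13.38 in droughted IR64-Tr-E2. In droughted NIL-481-B it had 1.29, 2.90 and 1.60, and in droughted Vandana 1.29, 2.85 and 4.31. The groups were separated by 8.03 log2 units, the widest gap of all. When plants were well watered it had 13.26, 13.07 and 13.34 in IR64-WT and 13.69 and 13.21 in IR64-Tr-E2, so that it hardly moved with treatment. Well-watered NIL-481-B gave 3.76, 1.34 and 1.47, and Vandana 1.43, 12.90 and 1.63, with replicate 2 as the single high array. The well-watered difference was 11.48 log2 units (SE 0.54, limma Benjamini-Hochberg adjusted p = 5.08e-10) without that array and 9.58 (SE 1.46, adjusted p = 0.00263) with it, and 1 of the 5 other Vandana-background arrays was well above background.

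LOC_Os06g01760 was the next by gap, with 7.77 log2 units. Its droughted IR64-WT arrays read 12.93, 12.52 and 12.73 and its IR64-Tr-E2 arrays 12.97, 12.98 and 12.44, against 1.77 to 3.76 in NIL-481-B and at most 4.66 in Vandana. Well-watered levels were 11.59, 12.22 and 11.42 in IR64-WT and 11.27 and 11.39 in IR64-Tr-E2, all below the drought levels of the same lines. In the well-watered NIL-481-B arrays (2.61, 1.69 and 1.44) and the Vandana arrays other than replicate 2 (1.37 and 2.40) the spot stayed dim, which puts the IR64 lines at least 270-fold higher. The limma adjusted p (Benjamini-Hochberg) was 6.09e-10, or 0.00442 with Vandana replicate 2, at 12.36, in the fit. Such a bound compares the bright arrays' mean with the dimmest signal that each of the other arrays could still tell from background. The adjusted p printed with a bound, here and below, comes from the fit to the values as read and does not test the bound.

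The next 6 members by gap were all dim on every drought array of NIL-481-B and Vandana. LOC_Os08g08360 had drought levels of 8.46 at the lowest, 8.77 at the median and 9.15 at the highest in the IR64 lines, and of 1.13, 1.21 and 1.26 in NIL-481-B and Vandana (gap 7.20). LOC_Os08g08650 had 8.61, 8.71 and 9.04 against 1.21, 1.34 and 1.58 (gap 7.03). These 2 loci lie near each other on chromosome 8 and are taken up again with the clusters. On chromosome 3, LOC_Os03g01420 (gap 6.83) ran from 9.31 to 9.82 in the IR64 lines and from 1.28 to 2.48 in the others, and LOC_Os03g01490 (gap 6.80) from 7.96 to 8.20 and from 1.03 to 1.16. LOC_Os04g58610 (gap 6.69) ran from 7.74 to 8.29 and from 1.00 to 1.04. LOC_Os06g06490 (gap 6.38) ran from 8.04 to 9.36 and from 1.25 to 1.66. In all 6 the spread inside a set of arrays was small beside the gap. The same loci were dim on all 5 well-watered arrays of the Vandana background other than Vandana replicate 2, where the IR64 lines were at least 37.3-fold higher for LOC_Os03g01420, 19.4-fold for LOC_Os03g01490, 16.7-fold for LOC_Os04g58610 and 11.4-fold for LOC_Os06g06490. For these 4 the adjusted p lay between 3.54e-13 and 3.87e-08 without that array and between 0.00255 and 0.00672 with it.

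The last of the 10 widest gaps were those of LOC_Os06g05440 (5.96) and LOC_Os12g22145 (5.94). The first was not silent in the Vandana background, where 3 of the 6 drought arrays were well above background and levels ran from 2.15 to 3.98, against 9.94 to 11.16 in the IR64 lines. The second was dim on all 6, from 1.20 to 1.45, against 7.38 to 8.90. At the other end, the members just inside the threshold were LOC_Os05g06170 (gap 2.02), LOC_Os07g31010 (2.04) and LOC_Os08g08655 (2.04), and the probes just outside were LOC_Os08g03880 (1.99), LOC_Os02g17620 (1.97) and LOC_Os08g40615 (1.95). The threshold cuts through a continuous range.

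**Figure D2:**
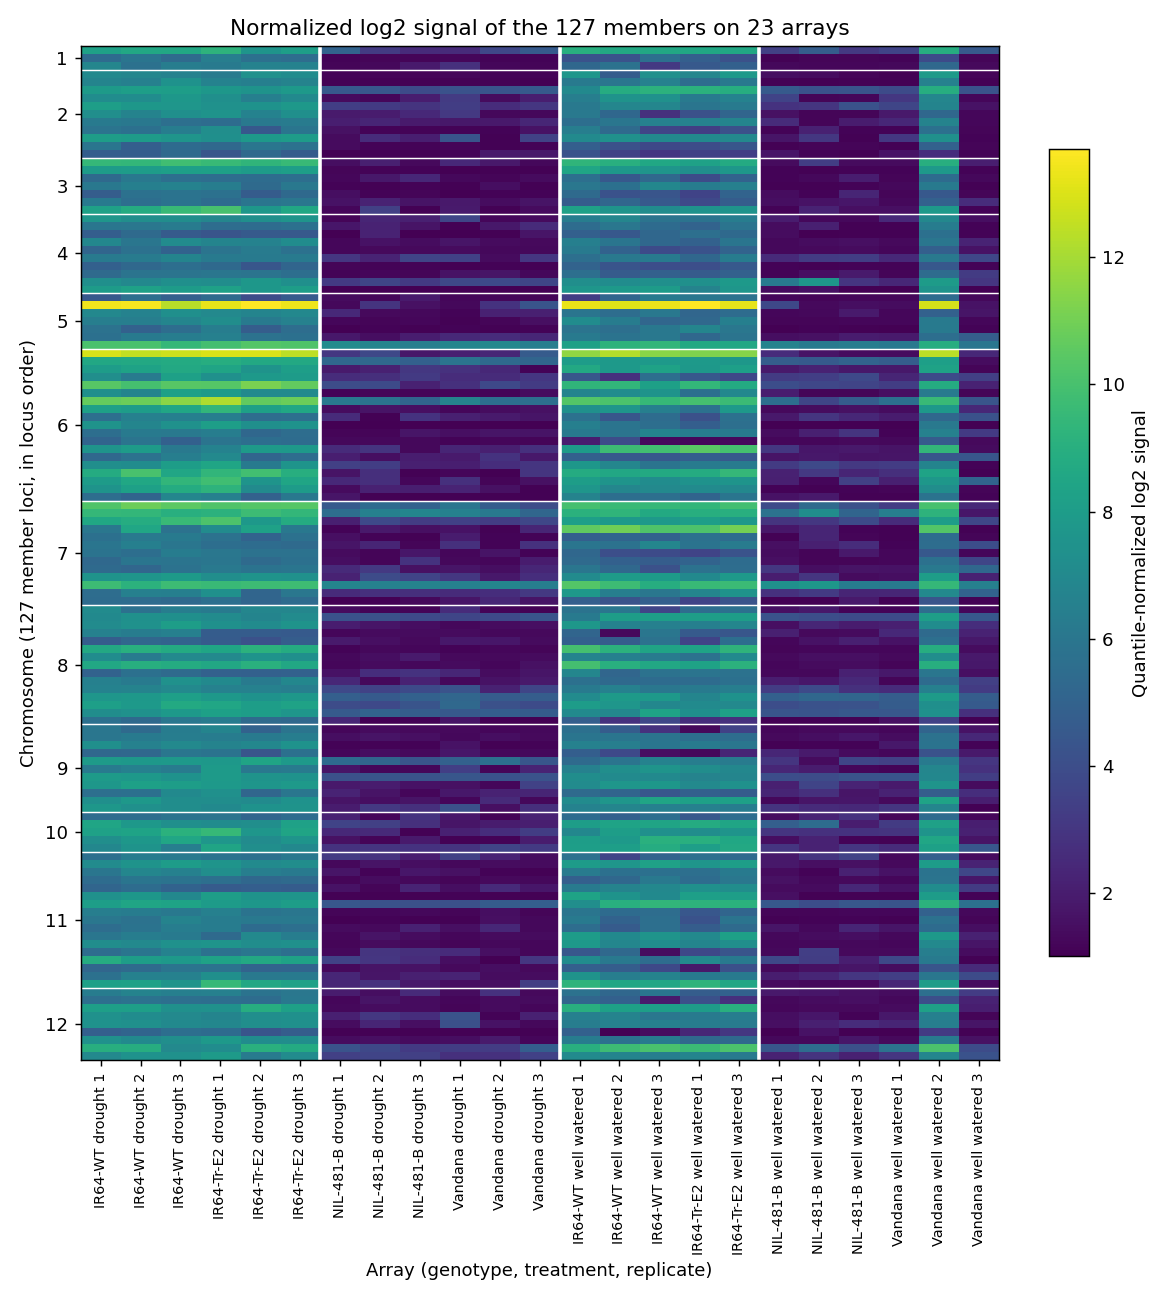
Quantile-normalized log2 signal (colour) of the 127 members (rows, in locus order, chromosomes parted by white lines) on the 23 arrays (columns). The 3 white vertical lines part drought from well-watered arrays and the IR64 lines from NIL-481-B and Vandana; within the last block the column of Vandana well-watered replicate 2 has the colours of the IR64 lines.

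The well-watered arrays had no part in choosing the members, so they ask whether the same loci also differ between the backgrounds without drought. All 127 members were higher in the well-watered IR64 lines, by a median of 3.38 log2 units with all 23 arrays and of 4.12 without Vandana well-watered replicate 2. Over all probes the corresponding medians were 0.02 and 0.02. Many of these differences are bounded rather than measured, because 94 members were not well above background on any of the 5 other Vandana-background arrays. With those members set at their lower bound the median was 2.79 log2 units, and 114 of the 127 stayed above 1. With another background correction (normexp with an offset of 50), which adds a constant to every spot, the median was 1.02 with all arrays.

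With all 23 arrays in 1 limma model, only 3 members passed both limits (a difference over 2-fold and an adjusted p below 0.05 by Bonferroni), where 0.00756% of all probes did so. They were LOC_Os11g46860 (adjusted p = 0.0355), LOC_Os11g44600 (0.0374) and LOC_Os09g15639 (0.0469). After Benjamini-Hochberg adjustment 112 members passed, against 0.673% of all probes. Without Vandana well-watered replicate 2 the counts were 105 members after Bonferroni (0.346% of all probes) and 122 after Benjamini-Hochberg adjustment (1.15%). A single array thus moved the Bonferroni count from 3 to 105, and leaving out any other single array gave 0 or 1.

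That model takes part of its error from the drought arrays that chose the members, so it was repeated on well-watered arrays alone. On the 10 such arrays without Vandana replicate 2, limma called 48 members after Bonferroni (0.113% of all probes) and 112 by Benjamini-Hochberg (0.643%). On all 11, Bonferroni called 0 members and 0% of all probes, and 119 members had an unadjusted p below 0.05. The share of all probes at an unadjusted p was not computed, so such counts, here and below, are descriptions. Arrays within 1 slide gave the same direction: without Vandana replicate 2, the median member difference was 4.02, 4.08 and 4.16 log2 units on the 3 slides that held both backgrounds, with 126, 123 and 127 members higher in the IR64 lines.

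Counted without a model, 115 members had every well-watered IR64-line array above every well-watered array of the Vandana background once replicate 2 was left out, against 1.5% of all probes. For 79 members that gap exceeded 2 log2 units, against 0.219% of all probes. With replicate 2 in, 10 members remained without overlap, against 0.308% of all probes.

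**Figure D3:**
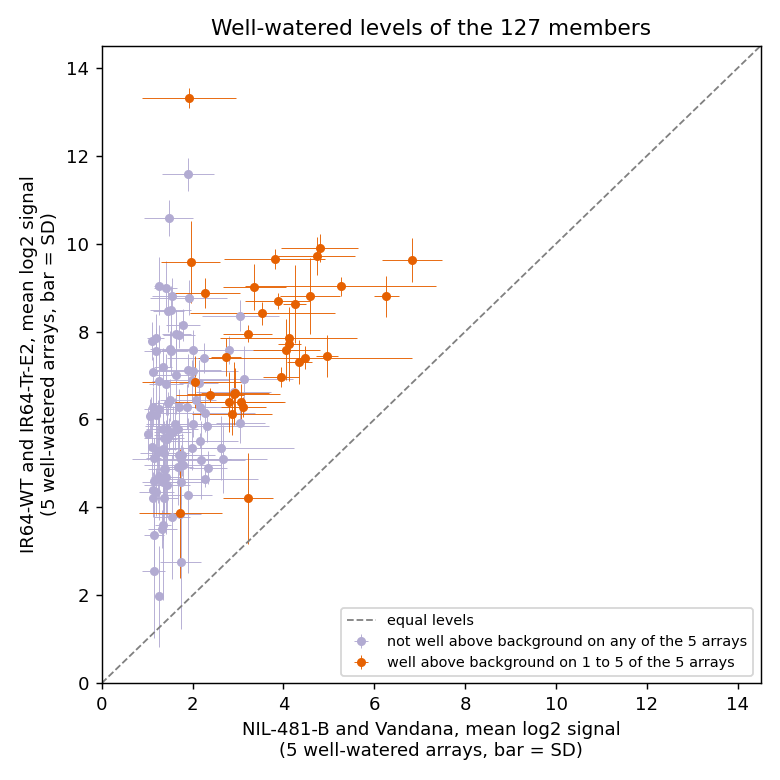
Mean log2 signal of each member on 5 well-watered arrays of NIL-481-B and Vandana (x axis, without Vandana replicate 2) and on 5 of the IR64 lines (y axis), with bars of 1 SD and a line of equal levels. All 127 points lie above the line, and the 94 pale points were not well above background on any of the 5 arrays on the x axis.

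The Benjamini-Hochberg call was missed by 5 members without replicate 2. LOC_Os06g13280 had 2.01, 3.94 and 1.35 in well-watered IR64-WT, 1.25 and 1.33 in IR64-Tr-E2, and 1.22 to 1.31 in the Vandana background, a difference of 0.59 log2 units (SE 0.35, adjusted p = 0.683). Only 1 of the 5 IR64-line arrays was well above background, so that this locus was near the detection limit in both backgrounds without drought. LOC_Os09g15644 differed by 0.89 (adjusted p = 0.634) and had 2 of 5 IR64-line arrays well above background. LOC_Os06g05420 differed by 1.03 (adjusted p = 0.428), with levels of 2.82 to 5.60 against 2.30 to 3.81. LOC_Os12g27800 differed by 1.46 (adjusted p = 0.256) and LOC_Os11g42880 by 2.23 (adjusted p = 0.0815), and in both the IR64-line arrays were widely spread. All 5 were well above background on every drought array of the IR64 lines, which the rule required.

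The drought change inside the IR64 lines was mostly upward. This comparison shares its drought arrays with the rule, which favoured high drought values, so counts of rises are a description. Over both lines the median member was 0.69 log2 units higher under drought, against a median of -0.06 over all probes (0.38 and -0.02 after the normexp correction), with 91 members higher and 36 lower. After Bonferroni adjustment limma called 1 member higher (0.781% of all probes) and 0 lower (0.217%). In either direction 32 had an unadjusted p below 0.05, a count without a share of all probes to read it against. After Benjamini-Hochberg adjustment the counts were 14 higher (8.64%) and 2 lower (6.44%), and without Vandana well-watered replicate 2 they were 35 higher (8.7%) and 5 lower (6.37%). That array is in neither side of the comparison and enters through the shared error of the model. Counted by arrays alone, 33 members had all 6 drought arrays above all 5 well-watered ones, against 6.76% of all probes, and 3 had them all below, against 3.95%.

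LOC_Os06g13280, called higher under drought, was well above background on 1 of the 5 well-watered arrays of the IR64 lines. It read 5.07, 5.90 and 4.91 in droughted IR64-WT and 5.87, 5.61 and 5.50 in droughted IR64-Tr-E2, above every well-watered value of those lines. The fitted difference was 3.61 log2 units (SE 0.52, adjusted p = 0.000161), a size that rests mostly on well-watered values at background. On the drought arrays of NIL-481-B and Vandana it stayed between 1.13 and 1.28 and was well above background on none.

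LOC_Os06g05420 was the 1 member called after Bonferroni with all arrays. It rose from 4.42, 2.82 and 5.60 in well-watered IR64-WT to 7.28, 6.31 and 8.22 under drought, and from 4.51 and 3.69 to 7.36, 7.86 and 7.97 in IR64-Tr-E2. The rise over both lines was 3.31 log2 units (SE 0.43, adjusted p = 6.59e-05). In NIL-481-B and Vandana it read 2.56 to 3.14 under drought and 2.30 to 3.81 on the 5 well-watered arrays, and was well above background on none of the 6 drought arrays, so that no drought change could be measured there.

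Other members called higher were also faint without drought, with LOC_Os09g15644 and LOC_Os09g14019 well above background on 2 and LOC_Os02g32700 on 3 of the 5 well-watered arrays. LOC_Os09g15644 rose by 2.80 log2 units (adjusted p = 0.0022), from 1.28 to 4.82 on the well-watered arrays to 4.34 to 6.01 under drought. LOC_Os09g14019 rose by 2.50 (adjusted p = 0.0105), from 1.29 to 5.71 to 5.01 to 6.73. LOC_Os02g32700 rose by 2.44 (adjusted p = 0.0153), from 2.75 to 6.15 to 6.65 to 7.51. In the first 2 the ranges overlapped and in the last they did not. Of the 35 members called higher, 20 were dim on at least 1 well-watered IR64-line array, and 24 were dim on all 11 arrays of the Vandana background without replicate 2.

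The falls ran against the direction that the rule favoured. LOC_Os07g03279 read 10.58, 10.94 and 10.22 in well-watered IR64-WT and 10.15 and 11.05 in IR64-Tr-E2, and dropped to 6.04, 8.54 and 5.81 and to 7.12, 8.29 and 6.06 under drought. The change was -3.61 log2 units (SE 1.21, adjusted p = 0.045, and 0.000114 without Vandana well-watered replicate 2). In the Vandana background its signal was at background on every drought array, and well watered the IR64 lines were at least 136-fold higher (adjusted p = 3.37e-09 without replicate 2, 0.00311 with it). The IR64 lines thus stayed higher in both treatments.

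LOC_Os06g17260 had a drought difference of -2.33 log2 units (adjusted p = 0.132, and 0.00185 without replicate 2), with 7.99 to 10.43 well watered and 6.13 to 7.97 under drought. LOC_Os11g29030 changed by -1.99 (adjusted p = 0.0389), from 6.22 to 7.38 down to 4.66 to 5.48. These 2 and LOC_Os07g03279 were the 3 members whose drought arrays all lay below the well-watered ones. LOC_Os11g42030 had a difference of -1.35 (adjusted p = 0.259, and 0.00409 without replicate 2) and LOC_Os10g34884 of -1.11 (adjusted p = 0.261, and 0.0328), and like LOC_Os06g17260 both were called only without that array. The 5 falling members were well above background on all 11 IR64-line arrays, and none was well above background on a drought array of NIL-481-B or Vandana.

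Of the 127 members, 116 had the same sign of change in IR64-WT and IR64-Tr-E2. The rule asked for high drought values in both lines, which favours a shared upward sign. The share of all probes with the same sign was not computed, so this count is a description. Taken alone, neither line had a member called after Bonferroni, against 0.301% of all probes for IR64-WT and 0.291% for IR64-Tr-E2, and 13 and 20 members had an unadjusted limma p below 0.05. After Benjamini-Hochberg adjustment 4 members were called in IR64-WT (4.71% of all probes), namely LOC_Os06g05420, LOC_Os06g13280, LOC_Os12g27800 and LOC_Os02g46860, and 6 in IR64-Tr-E2 (7.89%), so that both counts lay below the share of all probes. Without Vandana well-watered replicate 2 the counts were 11 (4.5% of all probes) and 24 (7.37%), and both then lay above that share. Bonferroni then called 0 members for the wild type (147 of 52901 probes) and 3 for the transgenic line (153). An unadjusted limma p below 0.05 was then reached by 47 and 61 members. The left-out array is on neither side of these comparisons and enters through the shared error. The rule favoured high drought values, so these counts are descriptions. LOC_Os06g05420 rose by 2.99 log2 units in IR64-WT and by 3.63 in IR64-Tr-E2. Whether the responses of the lines differ was not tested.

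**Figure D4:**
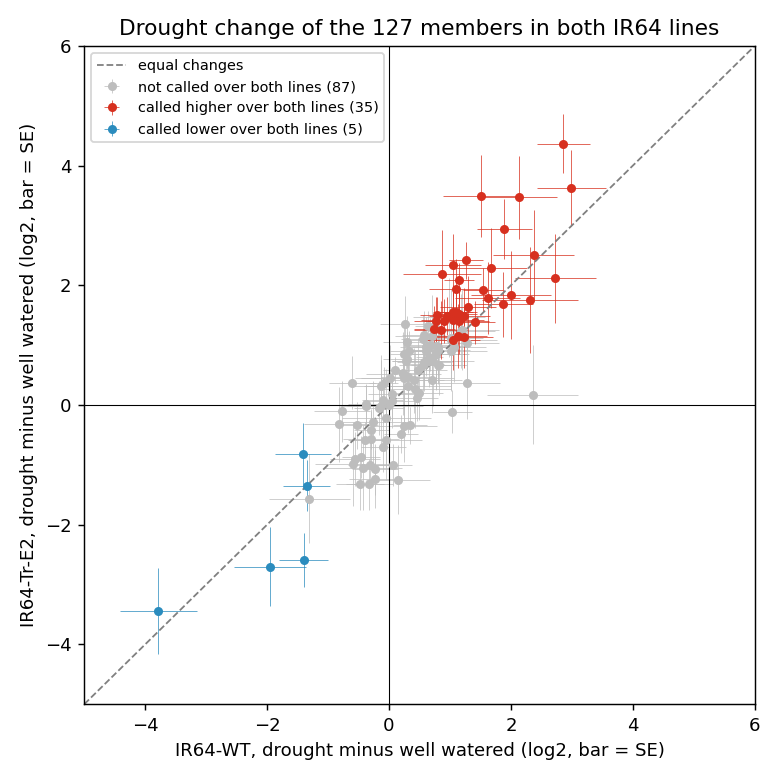
Change under drought (log2, drought minus well watered) of each member, with IR64-WT on the x axis and IR64-Tr-E2 on the y axis, with bars of 1 SE from the model without Vandana well-watered replicate 2. The 35 members called higher over both lines are red, the 5 called lower are blue, and 116 of 127 points lie in the quadrants where both lines have the same sign.

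No member passed the threshold for a difference of IR64-Tr-E2 from the wild type. Under drought the median member difference was -0.04 log2 units and 126 of 127 lay within 1 log2 unit. Bonferroni called 0 (0% of all probes), with 0 at an unadjusted limma p below 0.05. A locus much lower in 1 of the lines under drought could hardly become a member, so likeness there is partly built in. The share of all probes within 1 log2 unit was not computed in either treatment. Well watered, the median was -0.18 and 119 lay within 1 log2 unit. Bonferroni called 0 (0.00378% of all probes), with 2 at an unadjusted p below 0.05. Vandana well-watered replicate 2 enters these fits only through the shared error. Without it 0 members were called in either treatment (0 of 52901 probes under drought and 1 well watered). Then 1 member under drought and 10 well watered had an unadjusted p below 0.05. A lack of calls does not show that the lines are alike. The single member outside 1 log2 unit under drought was LOC_Os08g06810, which read 6.58, 6.33 and 6.54 in IR64-WT and 4.69, 4.72 and 4.59 in IR64-Tr-E2. Its arrays did not overlap, and its difference of -1.82 log2 units had an SE of 0.87 and an adjusted p of 1 in the fit over all probes. Its well-watered arrays spread widely, with 5.13, 1.30 and 5.97 in IR64-WT and 4.58 and 4.40 in IR64-Tr-E2.

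Between NIL-481-B and Vandana most members could not be compared, since 94 were dim on all 5 well-watered arrays once replicate 2 was left out. The well-watered median difference was -0.03 log2 units without that array, with single members from -1.67 to 2.90, and -1.53 with it, and with it limma called 0 members after Bonferroni (0.00189% of all probes), 31 having an unadjusted p below 0.05. Within NIL-481-B, LOC_Os04g40180 was uneven between well-watered replicates, at 6.24, 7.71 and 2.95, and was picked out after its values were seen. Its droughted arrays of NIL-481-B and Vandana lay between 3.14 and 3.86.

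Drought in NIL-481-B and Vandana moved few members, most of them being below detection there. Over both genotypes Bonferroni called 0 members (0.353% of all probes), with 10 at an unadjusted limma p below 0.05, and the median change was -0.76 log2 units with Vandana replicate 2 and -0.04 without it. The Benjamini-Hochberg call was passed by 3 members without it (4.19% of all probes) and by 1, LOC_Os11g44600, with it (4.28%). Both counts lay below the share of all probes, and the loci were picked out after their values were seen. LOC_Os09g15680 rose by 2.08 log2 units (adjusted p = 0.00347), from 1.36 to 3.63 on the 5 well-watered arrays to 4.34 to 5.71 under drought. In the IR64 lines the same locus rose by 1.78 (adjusted p = 0.00326 without replicate 2, 0.0221 with it), from 5.41 to 6.64 to 7.76 to 8.42, so that it rose in both backgrounds while staying higher in the IR64 lines. LOC_Os07g01990 rose by 1.29 (adjusted p = 0.0392). LOC_Os11g44600 changed by -1.15 (adjusted p = 0.0328), and only 1 of the 11 arrays behind that value rose above background.

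The members were unevenly spread over the chromosomes. Chromosome 6 held 19 (15% of the members, against 8.42% of all probes), chromosome 11 held 17 (13.4% against 7.43%) and chromosome 8 held 15 (11.8% against 7.44%). Chromosome 1 held 3 (2.36% against 11.9%), which were fewer than on any other chromosome. The mirror set of 158 loci higher in NIL-481-B and Vandana shared the high counts on chromosomes 6 (21 loci), 8 (15) and 11 (29). It differed on chromosome 1, where it also had 21. These shares are descriptions.

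**Figure D5:**
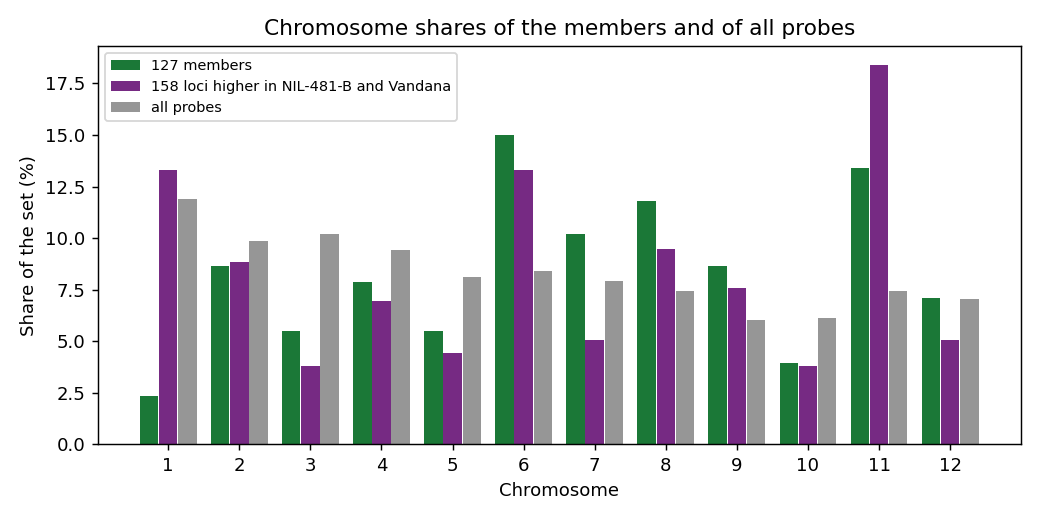
Share (%, y axis) of the 127 members, of the 158 loci higher in NIL-481-B and Vandana, and of all probes that lies on each chromosome (x axis). The members have 15% on chromosome 6 and 2.36% on chromosome 1, where all probes have 8.42% and 11.9%.

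Members also lay near each other. Of the 127, 41 (32.3%) had another member within 20 loci in the order of loci on the array, and 14 had one as the very next locus. In the mirror set 54 of 158 (34.2%) had such a neighbour, and 11 members (8.66%) had a mirror locus within the same distance. Runs of 3 or more members, each within 20 loci of the next, formed 6 clusters with 19 members, on chromosomes 6, 8, 9 and 11. No mirror locus lay inside any of the 6.

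The densest cluster was on chromosome 6, with 3 members among 5 loci from LOC_Os06g05420 to LOC_Os06g05450. LOC_Os06g05440 (10.49 on average in droughted IR64 lines against 3.29 in the Vandana background) and LOC_Os06g05450 (7.39 against 1.20) lie next to each other. The loci between them and LOC_Os06g05420, LOC_Os06g05424 and LOC_Os06g05430, were no members, with means of 6.71 against 5.67 and of 6.70 against 4.22. Both of these also had every droughted IR64-line array above every drought array of the other background, by 0.03 and 0.68 log2 units, as did 2.06% of all probes. Their drought values were unlike each other. LOC_Os06g05420 rose by 3.31 log2 units, LOC_Os06g05440 was 1.47 higher (adjusted p = 0.00825 without replicate 2, 0.223 with it) and LOC_Os06g05450 was 0.67 higher with an adjusted p of 0.123 without it.

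A second cluster on chromosome 6 had 3 members among 11 loci from LOC_Os06g06470 to LOC_Os06g06580. LOC_Os06g06470 was one of the 14 members with signal in every drought array of the Vandana background, from 5.13 to 6.70 against 10.63 to 12.17. LOC_Os06g06490 was dim in all of those, and LOC_Os06g06580 read 5.52 to 6.55 against 1.08 to 2.86. Between them LOC_Os06g06510 stood at 12.95 against 13.36, LOC_Os06g06530 at 7.90 against 7.71 and LOC_Os06g06550 at 7.54 against 7.24. Here the members were interleaved with loci at like levels in both backgrounds. The rule required the gap of the 3 members, and every other probe of the 11 overlapped between the backgrounds.

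On chromosome 8, 4 members lay among 27 loci from LOC_Os08g08360 to LOC_Os08g08655. LOC_Os08g08360 and LOC_Os08g08650, near the ends of that stretch, moved alike over the 11 IR64-line arrays (Pearson r = 0.975, over arrays that share treatment and line). Ranked by the largest difference on any of these arrays, they were the closest of 8001 member pairs, so r is a description. They read for example 9.98 and 9.90 on IR64-WT well-watered replicate 1 and 8.37 and 8.30 on IR64-Tr-E2 well-watered replicate 1. Well watered they were at least 46.4-fold and at least 45.1-fold higher in the IR64 lines (adjusted p = 5.13e-12 and 4.09e-12 without Vandana replicate 2, and 0.00221 for both with it). Whether the probes of this pair can tell their transcripts apart was not tested. LOC_Os08g08592 read 6.27 to 7.54 under drought against 1.28 to 1.95, and LOC_Os08g08655 read 4.91 to 5.71 against 1.41 to 2.87. The other 23 probes of the stretch overlapped between the backgrounds, among them LOC_Os08g08586 at 8.48 against 8.08.

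The second cluster on chromosome 8 was the mildest. LOC_Os08g11050, LOC_Os08g11200 and LOC_Os08g11240 were 3 of 19 loci, with gaps of 2.22, 2.32 and 2.59. Well watered, LOC_Os08g11200 read 7.15, 7.92 and 7.84 for IR64-WT, 6.79 and 7.49 in IR64-Tr-E2 and 4.74 to 5.25 on 5 arrays of the Vandana background. Its difference was 2.47 log2 units (SE 0.19, adjusted p = 3.42e-07) without Vandana replicate 2 and 1.93 (adjusted p = 0.0269) with it. Here LOC_Os08g11200 and LOC_Os08g11240 were well above background on all 6 drought arrays of NIL-481-B and Vandana.

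On chromosome 9, LOC_Os09g15639, LOC_Os09g15644 and LOC_Os09g15680 lay within 6 loci, and the first 2 were neighbours. LOC_Os09g15639 read 6.59 to 7.45 in the droughted IR64 lines, 5.93 to 6.61 in the well-watered ones and 1.06 to 1.84 on all 11 arrays of the Vandana background without replicate 2. LOC_Os09g15644, dim in that background too, rose with drought in the IR64 lines, and LOC_Os09g15680 rose with drought in both backgrounds. LOC_Os09g15639 was 0.77 log2 units higher under drought in the IR64 lines, under the 2-fold limit.

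On chromosome 11, LOC_Os11g44510, LOC_Os11g44580 and LOC_Os11g44600 lay within 9 loci. LOC_Os11g44510 read 7.89 to 8.85 in the droughted IR64 lines against 1.04 to 3.51, and was 1.92 log2 units higher under drought in the IR64 lines (adjusted p = 0.0127 without Vandana replicate 2, 0.0509 with it). LOC_Os11g44580 rose by 1.70 (adjusted p = 0.0127), but was well above background on only 2 of the 5 well-watered IR64-line arrays. LOC_Os11g44600 did not follow them, with a difference of -0.11 (adjusted p = 0.899). Its neighbour LOC_Os11g44590 met the gap, at 2.76 log2 units, and was left out because it was well above background on 5 of the 6 IR64-line drought arrays.

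Other pairs moved alike across chromosomes. Over the 11 IR64-line arrays r was 0.994 for LOC_Os03g57799 and LOC_Os06g31562, and 0.996 for LOC_Os02g14650 and LOC_Os11g29820. LOC_Os02g14650 read 7.05 on IR64-WT well-watered replicate 1 and 8.88 to 9.17 on the other well-watered IR64-line arrays, and LOC_Os11g29820 read 7.27 and 9.03 to 9.37. Both were also well above background on all 6 drought arrays of NIL-481-B and Vandana. These pairs were picked out after their values were seen, and the arrays share treatment, line and slide, so r is a description.

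The qDTY12.1 region of chromosome 12, where NIL-481-B carries Way Rarem sequence, held 4 members. These were 3.15% of the members and the region held 0.516% of all probes. LOC_Os12g26660 read 6.73 to 7.44 in the droughted IR64 lines, at most 3.04 in NIL-481-B and 1.11 to 4.23 in Vandana. LOC_Os12g27480 read 6.88 to 7.50, against 1.44 to 2.31 and 1.27 to 4.08. LOC_Os12g27980 read 7.02 to 7.89, against 1.38 to 1.53 and 1.25 to 1.94. The rule required low drought values in both genotypes, so low values in NIL-481-B are no result about the region. In each of the 3 the drought ranges of the 2 genotypes overlapped. On the well-watered arrays, which the rule did not use, NIL-481-B read 1.11 to 1.79, 1.53 to 2.62 and 1.27 to 1.79 in turn. LOC_Os12g27800 was dim in both genotypes (1.03 to 1.08) and read 4.32 to 5.61 in the IR64 lines.

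Of these, LOC_Os12g27800 rose in the IR64 lines under drought and LOC_Os12g27980 did so only in the fit without Vandana well-watered replicate 2. LOC_Os12g27980 went from 6.31, 5.75 and 6.21 to 7.43, 7.02 and 7.27 in IR64-WT and from 5.31 and 5.36 to 7.89, 7.16 and 7.23 in IR64-Tr-E2, a difference of 1.62 log2 units (adjusted p = 2.7e-05 without that array and 0.0673 with it). Its drought and well-watered arrays did not overlap. LOC_Os12g27800 rose by 2.42 (adjusted p = 0.00554), and its spot was dim on 4 of the 5 well-watered arrays. LOC_Os12g26660 and LOC_Os12g27480 were each 0.81 higher, with adjusted p of 0.484 and 0.434.

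Gene families could be described for few of the members. A description was at hand for 6 of the 127, from the study's list of genes distinct between IR64-WT and IR64-Tr-E2 under stress, and 0 matched the RefSeq gene table used here. LOC_Os07g35130 is described as OsFBX240, an F-box protein, a class that picks proteins for ubiquitin-mediated breakdown. LOC_Os11g35274 is described as having a protein kinase domain, which marks enzymes that phosphorylate other proteins. LOC_Os12g27980 is listed as a transposon protein, and LOC_Os01g24340, LOC_Os08g06810 and LOC_Os11g42880 as expressed proteins of no stated function. In the list, LOC_Os11g42880 stands in a group named OsNAC downregulated, LOC_Os12g27980 in a group for the qDTY12.1 region and the other 4 in a group named OsNAC upregulated. Under drought the difference of IR64-Tr-E2 from IR64-WT ran from -1.82 log2 units in LOC_Os08g06810 to 0.31 in LOC_Os01g24340 over the 5 loci of the OsNAC groups, each with an adjusted p of 1. The heat map that the study cites with this list shows ratios of drought to well watered. A difference in drought level is another measure and does not test the groups. The list was drawn up by the study on these arrays, so that membership in it is not independent of the values here.

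OsFBX240 (LOC_Os07g35130) read 5.48, 5.47 and 5.33 in droughted IR64-WT, 5.65, 5.16 and 5.43 in droughted IR64-Tr-E2, and 1.03 to 2.35 in droughted NIL-481-B and Vandana. The kinase locus LOC_Os11g35274 read 6.41, 6.34 and 6.09, then 6.52, 5.82 and 5.96, and 1.18 to 1.48. Neither was well above background on any of the 11 arrays of the Vandana background without replicate 2. Well watered they were at least 1.8-fold and at least 3.47-fold higher in the IR64 lines without Vandana replicate 2. The limma fit to the values as read, dim ones included, gave adjusted p of 7.71e-08 and 2.37e-10. With that array the adjusted p was 0.00504 and 0.00221. OsFBX240 was well above background on 3 of the 5 well-watered IR64-line arrays. Under drought OsFBX240 was 1.15 log2 units higher than well watered (adjusted p = 0.0796, and 0.0013 without replicate 2) and LOC_Os11g35274 was 0.98 higher (adjusted p = 0.162, and 0.000811), which is under the 2-fold limit.

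The locus numbers carried a last feature. Rice locus numbers were first assigned in steps of 10, and numbers that end in another digit were added between them. Such numbers made up 27 of the 127 members (21.3%) and 30 of the 158 mirror loci (19%), against 6.17% of all probes and 7.18% of the 20235 probes well above background on the IR64-line drought arrays. LOC_Os05g10414 and LOC_Os12g22145, among the 10 widest gaps, are of this kind. Members were printed more than once on the array about as often as other probes, 14.2% against 16.6%.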

How the data were processed

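Root RNA of 23 samples was hybridised to custom 1-colour Agilent arrays. From the scanner files that the authors deposited (Feature Extraction 11.5.1.1 in the file headers, 11.0 in the submitters' processing notes), the processed signal, a background-subtracted intensity that had not been normalized between arrays, was used. A deposited series table of log2 values, with each member's median at 0, had r = 0.99998 with the values computed here and chose the members. The locus of each probe was read from the SystematicName column.

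Control and outlier spots were left out, log2 intensities of a probe's spots were averaged, and arrays were quantile normalized. A limma model (limma 3.58.1, R 4.3.3, python 3.11.15, pandas 2.3.3, numpy 2.4.6) with a mean for each of 8 groups was fitted to all 52901 probes and all 23 arrays. Calls needed a change over 2-fold and a two-sided adjusted p below 0.05, by Bonferroni as in the study's methods and by Benjamini-Hochberg adjustment, which is the adjusted p given for single loci. Between 31.6% and 64.2% of spots were well above background per array, and precision is limited by how many arrays there were.

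Members and lists were chosen with earlier results of these data known. Named loci were the 10 with the largest gap, the clusters, the largest rises and falls under drought among called members, those with the smallest well-watered difference, those nearest the threshold, and those in qDTY12.1 or with a description. On simulated data with changes in 200 probes, Bonferroni calls were made for the well-watered background comparison. They recovered 94% of changes of 4 log2 units and 41% of changes of 2, with 0 unchanged probes called among 52901. These rates cannot be read as recovery for the members. In the same comparison 3 of the 127 members were called, at a median difference of 3.38 log2 units. Without Vandana replicate 2, 94 members were dim on all 5 well-watered arrays of NIL-481-B and Vandana. Alternatives were Benjamini-Hochberg adjustment, a 75th percentile shift, normexp with an offset of 50, a filter on dim probes, the deposited values, slide or replicate number as a block, fits of the compared arrays alone, other gap limits and each array left out in turn. Leaving out Vandana well-watered replicate 2 together with Benjamini-Hochberg adjustment or with the drought arrays was chosen after seeing the data.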

Additional observations from a re-analysis of the deposited data

How the results depend on the processing

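Counts below are members called. Under Benjamini-Hochberg adjustment the counts were 112 for the well-watered background difference, 16 for drought in the IR64 lines, 4 in IR64-WT, 6 in IR64-Tr-E2 and 1 in NIL-481-B and Vandana. Leaving out Vandana well-watered replicate 2 as well made these 122, 40, 11, 24 and 3 (for the last 3, 4.5%, 7.37% and 4.19% of all probes were called). On well-watered arrays alone without that array, 48 were called for the background difference by Bonferroni and 112 by Benjamini-Hochberg adjustment. For the background difference and for drought in the IR64 lines, main counts 3 and 1, the 75th percentile shift gave 8 and 0, the filter on dim probes 19 and 2, slide as a block 0 and 0, and the compared arrays alone 0 and 0. Normexp gave 1 for the background difference, and the cause was not tested. Same-numbered arrays did not deviate together (median r = -0.02 over 77 pairs, from -0.42 to 0.53). With so few arrays per group this cannot exclude that the numbers pair the samples. The plants were grown in randomized complete blocks, and whether the replicate numbers mark those blocks is not given in the sources used here. With replicate number as a block 0 members were called for the background difference.

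With each array left out in turn, the counts ranged from 0 to 105 for the background difference, from 0 to 4 for drought in the IR64 lines, from 0 to 1 in IR64-WT, from 0 to 3 in IR64-Tr-E2 and from 0 to 1 for NIL-481-B against Vandana well watered, and stayed at 0 for the other comparisons. The 105, the 4 and the 3 came without Vandana well-watered replicate 2, and the background count was 0 or 1 without any other single array. The number of members itself was 83 at a gap over 3, 16 under normexp and between 127 and 173 with an array left out. Members whose well-watered arrays did not overlap numbered 10, from 10 to 115 with an array left out, and 0 with a gap over 2. The median difference of IR64-Tr-E2 from IR64-WT well watered turned from -0.18 to 0.43 log2 units with slide as a block. The 75th percentile shift moved the median of all probes to -0.85 for drought in the IR64 lines, and the members' median was then 0.63. Under normexp the members' median was 1.02 for the background difference and 0.38 for drought in the IR64 lines.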
